A study of Mus musculus with 2 samples.

Results

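Elastic fibres are the stretchable part of the matrix around ducts, vessels and fat lobules, and 10 genes of their assembly were followed here in the mouse mammary gland. They were taken by symbol from the deposited gene tables: 7 genes for structural proteins (Eln, Fbn1, Fbln1, Fbln2, Fbln5, Emilin1 and Mfap5) and 3 for lysyl oxidases (Lox, Loxl1 and Loxl2), out of 21113 genes. All 10 were found. The tables come from 1 wild-type library and 1 ILN/ILN library of polyadenylated RNA, both of mammary gland taken from C57BL/6 mice in week 6 after birth. ILN/ILN mice are homozygous for an IRES-LacZ-Neo cassette placed in the locus of miR-212 and miR-132, a pair of small regulatory RNAs. The labels do not say how many animals each library holds, and with 1 library per genotype no difference below has a replicate check or a p-value. The libraries held 46133338 fragments (wild type) and 42953129 fragments (ILN/ILN) assigned to genes.

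In an elastic fibre, fibrillin-rich microfibrils form a scaffold on which the soluble precursor tropoelastin is laid down. Fibulins and EMILIN1 bring tropoelastin, microfibrils and cells together, and lysyl oxidases, copper-dependent secreted enzymes, oxidise lysines so that elastin and collagen chains become cross-linked. Lysyl oxidases also act on fibrillar collagen, which stiffens the stroma, and in the mammary gland these proteins are made largely by fibroblasts and by cells of the vessel wall.

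Because the ILN allele disrupts miR-212 and miR-132, the first question was whether the members carry a match to the seed that these microRNAs share. The mature 3p sequences are shown from RefSeq (GRCm38.p6), 5′ to 3′, with the seed (bases 2 to 8) in capitals.
mmu-miR-132-3p: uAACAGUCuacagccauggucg
mmu-miR-212-3p: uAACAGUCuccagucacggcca
The match to this seed, GACTGTT, was searched on the transcript strand of each gene's 3′ untranslated region, taking the longest one annotated (GENCODE M21, GRCm38). It was present in 1 of 10 members, Fbn1, against 12.7% of the 10271 measured genes with such a region. Among the 3596 measured genes whose region was 500 to 1500 bases long, 8.54% held it. The members' regions ran from 325 bases in Emilin1 to 4177 bases in Fbln5. The single match lies at bases 331 to 337 of the 992 bases of the Fbn1 region, at chr2:125301239-125301265 on the minus strand of GRCm38 with 10 bases to either side, and is shown with the match in capitals because Fbn1 is the 1 member that holds it.
Fbn1 site: ccatctgatgGACTGTTccgcgttggt
A match describes the letters in this window and is not evidence of a working site, and the microRNAs themselves were not analysed here.

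The 10 genes did not move as a block. In the ILN/ILN library Lox and Mfap5 were lower by more than 1.5-fold, Eln, Emilin1 and Fbln2 were lower by less than that, Loxl1 and Loxl2 were nearly equal, and Fbn1, Fbln1 and Fbln5 were higher. Levels are the deposited FPKM-like value, a signal per kilobase of gene scaled for library size. Fragments are the whole numbers behind that signal, and each ratio below is of fragments scaled by the library totals, with an exact conditional 95% interval that covers counting error alone. Calls used log2((ILN/ILN value + 1)/(wild-type value + 1)), written log2 ratio, with 1.5-fold as the threshold. On that scale 2 of 10 members (20%) were at least 1.5-fold lower and 0 were at least 1.5-fold higher, beside 5.39% of 11556 measured genes lower and 1.9% higher. At a ratio of 5 to 4, 4 members were lower and 1 was higher, beside 13.3% and 8.52% of genes, and at 2-fold 0 members passed either way, beside 1.72% and 0.407%. A gene counted as measured when its value was at least 1 in either library, and all 10 members met this in both. The median log2 ratio was -0.16 for the members and 0.015 for all measured genes.

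**Figure D1:**
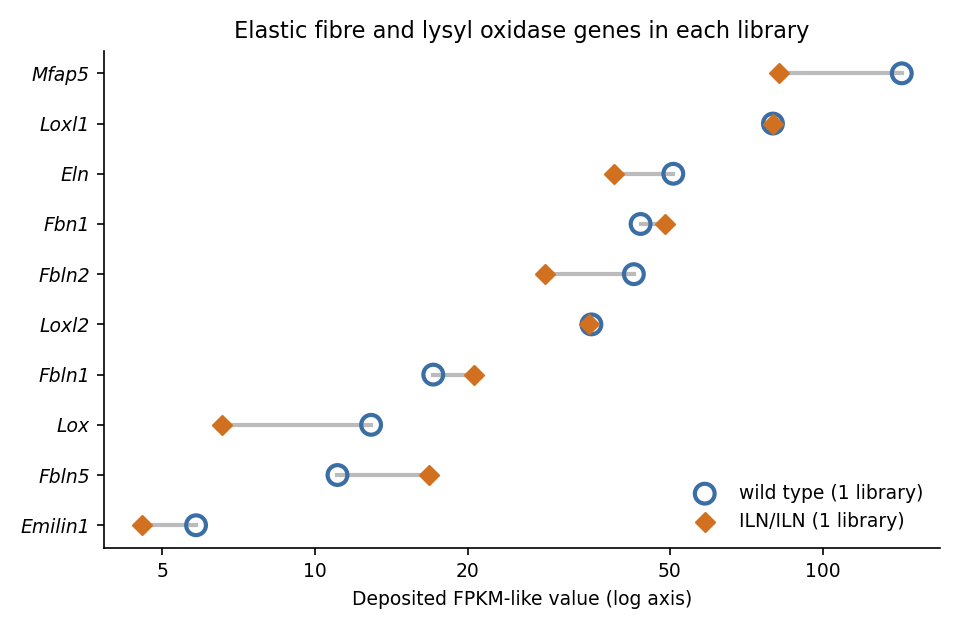
Deposited FPKM-like value (horizontal, log axis) of each member in the wild-type library (open circles) and the ILN/ILN library (filled diamonds), with 1 library per genotype and genes ordered by their wild-type value. Mfap5 lies at 143 and 82.1 and Lox at 12.9 and 6.58, whereas the symbols of Loxl1 and Loxl2 lie on top of each other.

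The members spanned a 24.5-fold range of levels in the wild-type library and a 18.0-fold range in the ILN/ILN library. In wild type the order of values was Mfap5, Loxl1, Eln, Fbn1, Fbln2, Loxl2, Fbln1, Lox, Fbln5 and Emilin1. In ILN/ILN it was Mfap5, Loxl1, Fbn1, Eln, Loxl2, Fbln2, Fbln1, Fbln5, Lox and Emilin1. Neighbouring members thus changed places in 3 pairs, Eln with Fbn1, Fbln2 with Loxl2, and Lox with Fbln5. The exchange of Fbln2 with Loxl2 rests on the derived estimate of Fbln2 described below. From fragments per kilobase, scaled by library totals, Fbln2 lay under Loxl2 in both libraries (28.4 and 36.9 in wild type, 23.5 and 36.4 in ILN/ILN). Within the ILN/ILN library the counting intervals of Mfap5 (79.8 to 84.4) and Loxl1 (78.3 to 81.2) overlapped, so counting error does not separate them there. In the wild-type library the same pair was far apart, at 143 (140 to 146) and 79.9 (78.5 to 81.3). The other neighbours in either order had intervals that did not overlap, apart from Fbln2, whose values carry no such interval. The spread between animals is unknown for every pair.

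Among the scaffold genes, Fbn1, which encodes fibrillin-1, the main microfibril protein, was at 43.8 in wild type and 48.95 in ILN/ILN, from 20903 and 21734 fragments. The ratio was 1.12 (1.10 to 1.14), and on the log2(value + 1) scale the difference was 1.11-fold, under the threshold. Mfap5 encodes MAGP2, a small glycoprotein that binds fibrillin microfibrils and is also made by a subset of fibroblasts in connective tissue. Its value was 143 in wild type and 82.1 in ILN/ILN, with 9312 and 4968 fragments. This is 1.75-fold lower in ILN/ILN (1.69 to 1.81), and 2.84% of measured genes had a lower log2 ratio. Set against each other within each library, which removes library scaling, Mfap5 per kilobase was 3.27 times Fbn1 in wild type and 1.68 times Fbn1 in ILN/ILN. The proportion was 1.95-fold lower (1.87 to 2.03).

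Eln encodes tropoelastin, the elastic core itself. Its value was 50.8 in wild type and 38.9 in ILN/ILN, from 9132 and 6506 fragments, which is 1.31-fold lower (1.27 to 1.35). Emilin1 encodes a glycoprotein at the interface between elastin and microfibrils that also restrains TGF-beta processing. It was the lowest member, at 5.835 and 4.57 with 961 and 701 fragments, and was 1.28-fold lower (1.16 to 1.41). Eln and Emilin1 kept nearly the same proportion to each other, with Emilin1 per kilobase at 0.115 times Eln in wild type and 0.118 times Eln in ILN/ILN. The change in that proportion was 1.02 (0.923 to 1.14), an interval that includes 1. Relative to Fbn1, Eln per kilobase stood at 1.16 times in wild type and 0.795 times in ILN/ILN, 1.46-fold lower (1.41 to 1.51).

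The fibulins differed in direction. Fbln5, whose protein binds tropoelastin and lysyl oxidase-like 1 and is needed for elastic fibre assembly, was at 11.1 in wild type and 16.8 in ILN/ILN, with 3098 and 4371 fragments. The ratio was 1.52 (1.45 to 1.59), the highest of the 10 members. On the log2(value + 1) scale it was 0.56, or 1.47-fold, just under the threshold, and 97.8% of measured genes had a lower log2 ratio. Fbln1, which encodes a fibulin found in elastic fibres and basement membranes, was at 17.1 and 20.6 with 2729 and 3060 fragments, a ratio of 1.20 (1.14 to 1.27). Fbln2, which encodes a larger fibulin of vessel walls and of the matrix around mammary ducts, went the other way.

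Fbln2 was the 1 member with more than 1 isoform in the tables, and its size of difference depended on which deposited estimate was read. Its deposited value was 42.5 in wild type and 28.4 in ILN/ILN, 1.48-fold lower on the log2(value + 1) scale and just short of the threshold. These values came from an estimate derived over isoforms, which exceeded the original estimate 1.57-fold in wild type and 1.27-fold in ILN/ILN. The fragments themselves, 5500 and 4228, gave a smaller difference of 1.21-fold lower (1.16 to 1.26). Both measures placed Fbln2 lower in ILN/ILN. Per kilobase of fragments Fbln2 was 2.44 times Fbln5 in wild type and 1.33 times Fbln5 in ILN/ILN, a 1.84-fold change (1.73 to 1.95). Fbln5 per kilobase was 0.218 times Eln in wild type and 0.432 times Eln in ILN/ILN, so the proportion of this assembly fibulin to its elastin partner was 1.98 times as high in ILN/ILN (1.87 to 2.10).

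**Figure D2:**
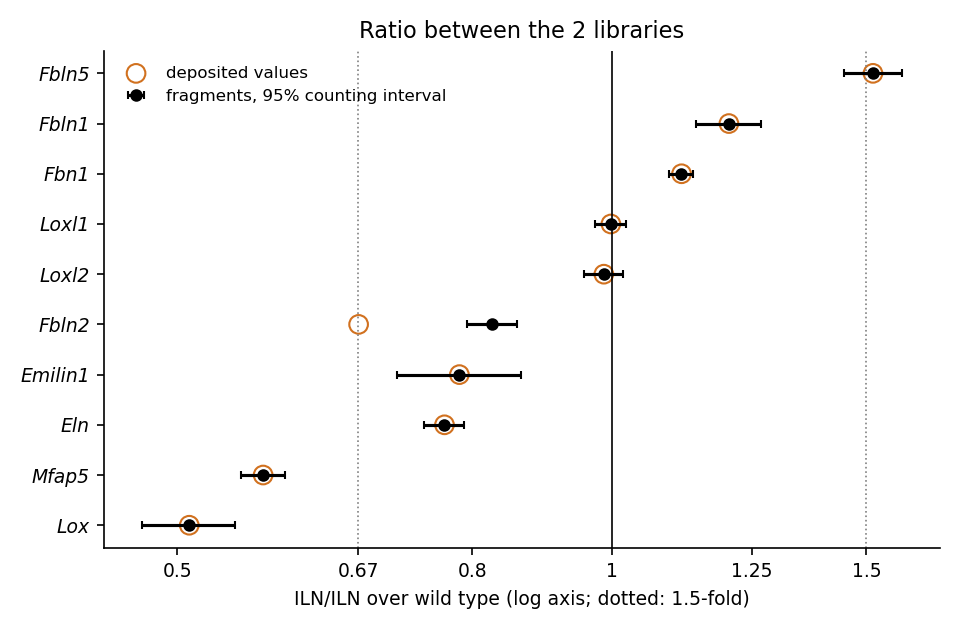
Ratio of ILN/ILN to wild type (horizontal, log axis) for each member, from fragments scaled by library totals (filled points, bars are 95% counting intervals) and from the deposited values (open circles), with dotted lines at 1.5-fold. The 2 measures coincide for 9 members and part for Fbln2, at 0.826 from fragments and 0.668 from deposited values.

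The lysyl oxidase genes did not differ alike. Lox, which encodes the founding enzyme of the family, was at 12.9 in wild type and 6.58 in ILN/ILN, with 2212 and 1049 fragments. This is 1.96-fold lower in ILN/ILN (1.82 to 2.12), with 2.33% of measured genes at a lower log2 ratio. Loxl1, whose enzyme is tied to elastin renewal through fibulin-5, was at 79.9 and 79.7 with 12655 and 11756 fragments. Its ratio was 0.998 (0.973 to 1.02), so counting error leaves room for a difference of a few percent at most between these libraries. Loxl2, whose enzyme cross-links collagen IV of basement membranes, was at 35.05 and 34.6 with 8695 and 7987 fragments, and its ratio was 0.987 (0.957 to 1.02).

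Proportions between the enzymes within a library need no scaling. They rest on the same fragments as the ratios above and are not separate support for them. Loxl1 per kilobase was 6.19 times Lox in wild type and 12.1 times Lox in ILN/ILN, and the proportion of Lox to Loxl1 was 1.96-fold lower (1.81 to 2.12). The proportion of Lox to Loxl2 was 1.94-fold lower (1.79 to 2.10), whereas that of Loxl2 to Loxl1 changed 0.989-fold (0.950 to 1.03). The 2 remaining family genes, Loxl3 and Loxl4, were scarce. Loxl3 was at 3.415 and 2.64 with 605 and 436 fragments, and Loxl4 at 1.64 and 0.731 with 421 and 175 fragments. Loxl4 relative to Loxl1 was 2.23-fold lower (1.87 to 2.69) and Loxl3 relative to Loxl1 was 1.29-fold lower (1.13 to 1.47). Summed over the 5 genes the value was 133 in wild type and 124 in ILN/ILN, and Loxl1 and Loxl2 made up most of it in both. The share of Lox was 9.71% and 5.29%, that of Loxl1 60.1% and 64.1%, and that of Loxl2 26.4% and 27.8%.

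**Figure D3:**
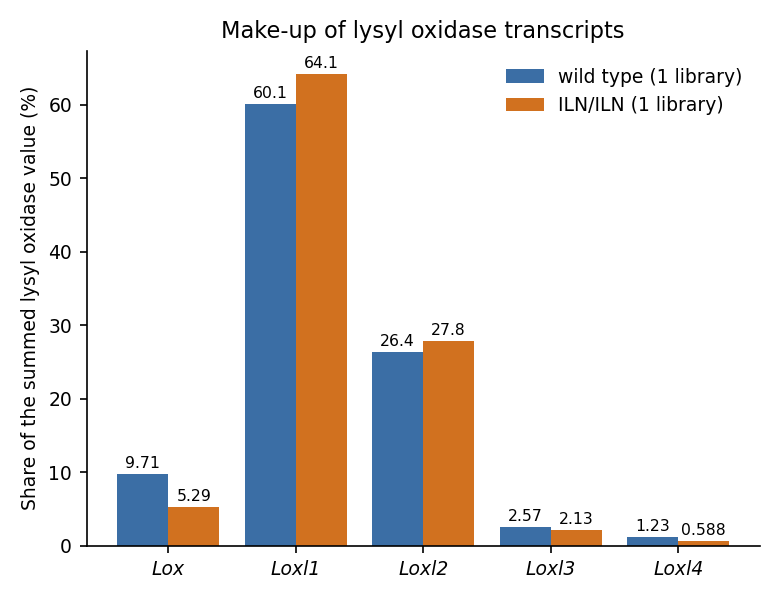
Share of the summed deposited value of the 5 lysyl oxidase genes (vertical, percent) taken by each gene, with 1 bar per library for wild type and ILN/ILN. Loxl1 is the main gene in both bars, at 60.1% and 64.1%, and Lox stands at 9.71% and 5.29%.

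Read by counting error alone, 5 of 10 members had a ratio interval wholly below 1 and 3 wholly above 1. At this depth 29.3% of the 11528 measured genes with fragments had intervals below 1 and 33.2% above, so an interval that leaves out 1 is common and is not in itself a result about the members. From fragments, 2 members were at least 1.5-fold lower (7.61% of genes) and 1 member, Fbln5, at least 1.5-fold higher (2.89% of genes). When libraries were scaled to 8 fibroblast markers in place of the deposited constants, 2 members were lower and 1 was higher on the log2(value + 1) scale, beside 530 lower and 314 higher among all genes, against 623 and 220 with the deposited scaling. Loxl1 and Loxl2 turned from just below to just above 1 under that scaling. It used the geometric mean of the 8 marker ratios, not their sum or median. This set the ILN/ILN library size at 0.882 of wild type, against 0.931 by fragment totals, and so raised every ILN/ILN value. The summed marker value (1929 in wild type, 2019 in ILN/ILN) and the median marker log2 ratio (0.052) instead lay higher in ILN/ILN. Scaling to either would have lowered ILN/ILN values and was not run. Counts under fibroblast marker scaling therefore depend on the geometric mean, which 3 markers below 0 pulled down against 5 above.

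**Figure D4:**
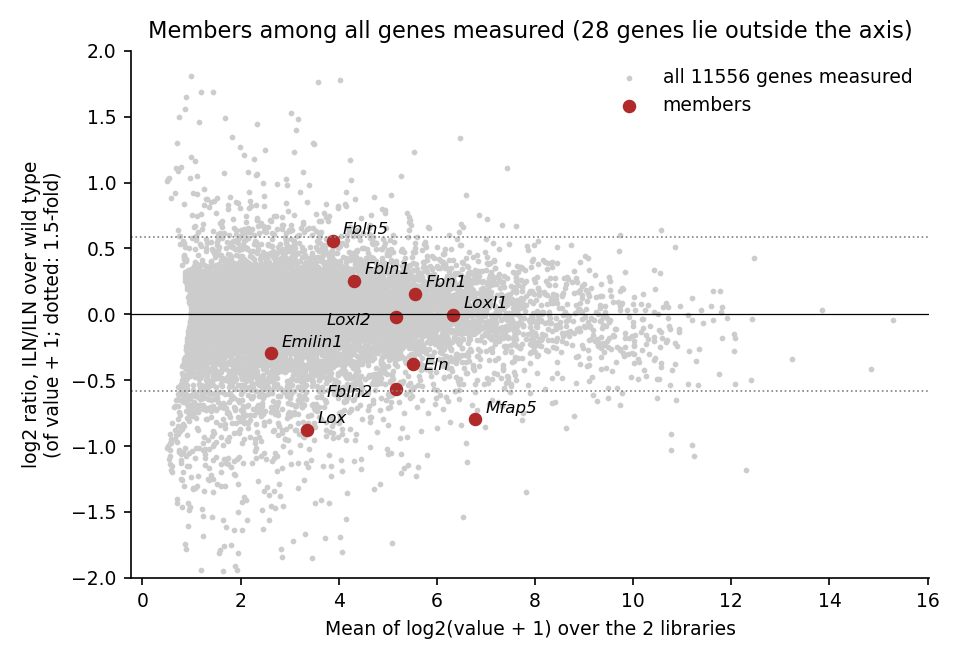
Log2 ratio of (value + 1), ILN/ILN over wild type (vertical), against the mean log2(value + 1) over the 2 libraries (horizontal) for 11556 measured genes (grey) and the 10 members (red), with dotted lines at 1.5-fold. Lox and Mfap5 lie below the lower line, Fbln2 and Fbln5 lie just inside the lines, and 28 genes fall outside the vertical range.

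Other genes of the pathway were read from 6 lists of 61 genes, of which 54 were measured. Of these 54, 9 were at least 1.5-fold lower and 1 at least 1.5-fold higher, with a median log2 ratio of -0.11. Over all 11556 measured genes 5.39% were lower and 1.9% higher, with a median of 0.015. The main counts of each list below stand beside these same shares. Scaled to fibroblast markers, 4 pathway genes were lower and 1 higher, beside 530 and 314 of 11581 measured genes. Over all measured genes, 887 of 11556 were lower and 354 higher with a pseudocount of 0.1, and 225 and 67 with 5. With a minimum of 5 these counts were 354 and 140 of 7819, and from fragments per length 569 and 161 of 11424.

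Microfibril and elastic fibre components outside the member list had 2 of 15 measured genes lower and 1 higher, with a median of 0.0065. With a pseudocount of 5 these counts were 0 and 0, and 4 genes were lower with a pseudocount of 0.1 and 1 with fibroblast marker scaling. Mfap4, which encodes a fibrillin- and elastin-binding protein, was at 7.23 and 3.94 with 505 and 256 fragments, 1.84-fold lower (1.58 to 2.14). Ltbp2, whose protein binds fibrillin-1 and fibulin-5, was at 8.52 and 5.295 with 2451 and 1418 fragments, 1.61-fold lower (1.51 to 1.72). Efemp2, which encodes fibulin-4, the fibulin that brings lysyl oxidase to tropoelastin, was at 40.8 and 27.04, with a log2 ratio of -0.58 just inside the threshold. From fragments it was 1.51-fold lower (1.42 to 1.61). Fbln7, a fibulin gene of low level, was at 2.35 and 4.61 with 325 and 593 fragments, a ratio of 1.96 (1.71 to 2.25).

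Cross-linking enzymes and their helpers had 1 of 7 measured genes lower, Loxl4, and 0 higher, with a median of -0.28. The count was 0 with a pseudocount of 5, a minimum of 5 or fibroblast marker scaling, and the median was -0.14 with a pseudocount of 5, -0.072 with a minimum of 5 and -0.038 with no minimum. Fn1, which encodes fibronectin, an early template of the matrix, was at 219 and 152 and was 1.45-fold lower (1.43 to 1.46). Pcolce, which encodes an enhancer of procollagen cleavage, was at 201 and 145 and was 1.39-fold lower (1.35 to 1.42). Its paralogue Pcolce2 went the other way, at 60.7 and 79.0, a ratio of 1.30 (1.254 to 1.35).

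The collagen chains that lysyl oxidases act on had 1 of 7 lower, Col5a1, and 0 higher, with a median of 0.032. Col5a1 did not pass with a pseudocount of 5 or with fibroblast marker scaling. Col1a1 and Col1a2, the chains of type I collagen, had ratios of 1.05 (1.04 to 1.06) and 1.10 (1.09 to 1.11). Col3a1, the type III chain, was 1.10-fold lower (1.09 to 1.10). Col5a1, a type V chain that sets fibril diameter, was at 55.2 and 35.6, 1.55-fold lower (1.52 to 1.58).

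Proteases that can degrade elastin, with their inhibitors, had 5 of 12 measured genes lower and 0 higher, and their median of -0.48 was the lowest of the 6 lists. With a pseudocount of 5 the count was 2, and with fibroblast marker scaling it was 3. Ctsk, the collagen- and elastin-cleaving cathepsin K, was at 89.7 and 57.8, 1.55-fold lower (1.49 to 1.62). Mmp9, gelatinase B, was 1.56-fold lower (1.47 to 1.65), and Timp1, an inhibitor of metalloproteinases, 1.73-fold lower (1.45 to 2.06). Of the neutrophil serine proteases 2 passed the threshold and Elane, neutrophil elastase, did not. Prtn3, proteinase 3, was at 20.1 and 11.4, 1.76-fold lower (1.57 to 1.97). Ctsg, cathepsin G, had 70 and 7 fragments, 9.31-fold lower (4.29 to 24.0). Elane was at 6.09 and 4.055, 1.402-fold lower on the log2(value + 1) scale and 1.502-fold lower from fragments (1.22 to 1.85).

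Of 10 measured receptor genes, 0 passed 1.5-fold either way on the log2(value + 1) scale (median -0.17), and 1 was lower with a pseudocount of 0.1 or from fragments per length. Itgb1, the common beta chain of many matrix receptors, had a ratio of 1.20 (1.16 to 1.246). Itga4, a further partner for EMILIN1, was 1.39-fold lower (1.23 to 1.56) and Itgb3, of the vitronectin receptor, 1.27-fold lower (1.14 to 1.42). Itga9, an integrin chain that binds EMILIN1, was at 3.205 and 2.01. Its ILN/ILN value rests on the derived estimate, and by fragments, 781 and 378, it was 1.92-fold lower (1.70 to 2.18). Of the 3 TGF-beta ligand genes, whose products are held latent on microfibrils, 0 passed. Tgfb1 was at 38.3 and 26.7, 1.44-fold lower (1.36 to 1.51). Tgfb3 had a ratio of 1.17 (1.08 to 1.27), and Tgfb2, with 217 and 230 fragments, a ratio of 1.14 (0.942 to 1.38).

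**Figure D5:**
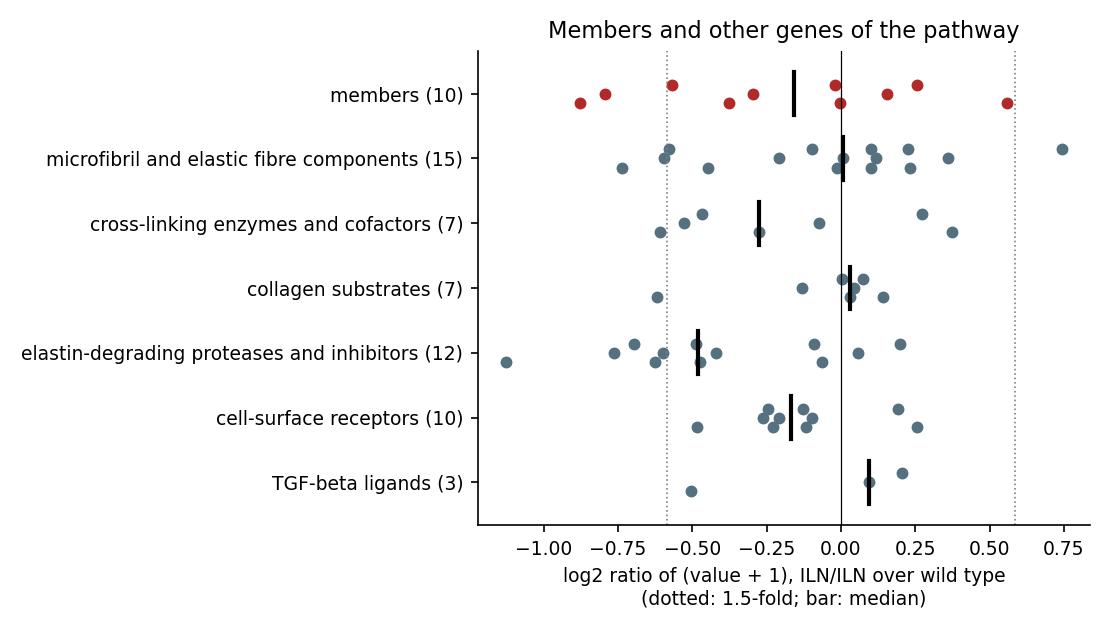
Log2 ratio of (value + 1), ILN/ILN over wild type (horizontal), of each measured gene in the member list and the 6 pathway lists (1 point per gene, black bar the list median, dotted lines 1.5-fold). The member points spread from -0.88 to 0.56, while the collagen points other than Col5a1 lie close to 0.

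Markers of the cells that a dissected gland can hold moved unevenly between the libraries, and their part in the results above was not tested. In a bulk sample fewer cells of a type and less RNA per cell cannot be told apart. Of 8 fibroblast markers 0 passed 1.5-fold, their summed value was 1929 and 2019 and their median log2 ratio 0.052. Their log2 ratios lay above 0 for 5 genes and below 0 for 3. Pi16, a marker of a fibroblast subset, had the lowest of them and was 1.41-fold lower (1.39 to 1.44). Dpp4, also on the fibroblast list, went the other way, with a ratio by fragments of 1.17 (1.08 to 1.28). Smooth muscle markers had 0 of 6 past 1.5-fold, with sums of 124 and 107 and a median of -0.21. Of the 6 smooth muscle markers 5 had a log2 ratio below 0 and 1 above. Acta2, smooth muscle actin, was 1.30-fold lower (1.246 to 1.36), while Tagln had a ratio of 1.05 (0.988 to 1.11). By fragments Myh11 had a ratio of 0.969 (0.918 to 1.02). Endothelial markers had 0 of 6 past 1.5-fold, sums of 119 and 142 and a median of 0.33. White adipocyte markers, which define the fat pad, were high in both libraries (sums of 9085 and 9460), with 0 of 6 past 1.5-fold. Macrophage markers had 1 of 5 at least 1.5-fold lower, with sums of 670 and 493 and a median of -0.33. All 5 had a log2 ratio below 0. All 4 B cell markers (158 and 31.1) and all 5 T cell markers (43.7 and 16.4) were at least 1.5-fold lower. All 4 measured luminal epithelial markers were at least 1.5-fold lower, and the full list of 6 summed to 36.7 and 0.514. Krt8 and Elf5 had 742 and 51 fragments in wild type and 0 in ILN/ILN, where a count of 0 allows up to 3. The 4 basal epithelial markers summed to 7.94 and 6.30. Most of that sum came from the 2 measured, Trp63 (3.496 and 2.785) and Oxtr (2.8 and 3.511), of which 0 passed 1.5-fold. The basal keratin genes Krt5 and Krt14, under the minimum, had 78 and 62 fragments in wild type and 0 in ILN/ILN. The 3 skin keratinocyte markers in the tables were under the minimum (sums of 0.627 and 0.611). Of 4 chondrocyte markers (sums of 1.02 and 1.505) 1 was measured, and 0 passed 1.5-fold on the log2(value + 1) scale. The measured marker was Comp, at 0.764 and 1.48, close to the minimum, and 1.41-fold higher on that scale. From its 88 and 159 fragments the ratio was 1.94 (1.49 to 2.55), past 1.5-fold. Sox9 had 46 and 4 fragments. The defining cartilage genes Col2a1 and Acan were close to absent in both libraries, with 2 and 4 fragments in wild type and 0 in ILN/ILN. Their ratio intervals reached up to 5.72 and 1.63, so counting error covers both differences.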

How the data were processed

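RNA from mammary glands was sequenced in 1 wild-type and 1 ILN/ILN library, with 2 lanes each and a dUTP-marked second strand, per the labels' protocols. Bowtie 0.12.3, TopHat 1.4.1, bedtools and build mm9 are named in the submitters' processing notes. The sources used here do not give the annotation, the use of strand or the handling of multiply matching reads. The authors deposited an FPKM-like value per gene, and a log2 column of (value + 1). The deposited signal per kilobase came as an original, a derived and a final estimate. The original estimate times gene length was whole, within 0.01, in 100% of values above 0, and is called fragments. No source used here says whether these are reads or pairs.

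Ratios and exact conditional 95% intervals (scipy 1.17.1) were computed on fragments, and proportions between 2 genes with exact conditional odds ratios. The deposited values were compared as log2 ratios with a pseudocount of 1, a minimum of 1 in either library and a 1.5-fold threshold. On counts simulated with Poisson error alone, the intervals covered the true ratio in 95.4% of 11328 genes with no difference. Coverage was 95.0% in 100 genes at a ratio of 0.5 and 94.0% in 100 at 1.5. The intervals assume such error, so this checks the calculation and not their fit to real libraries. The labels' protocols name no molecular identifiers, so intervals and the limit of 3 fragments cover counting error only. They say nothing of differences between animals or dissections.

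The members and lists were chosen with earlier results of these data known. The named genes were all members, and the 4 genes of each pathway list with the largest absolute log2 ratio and any past 1.5-fold. For each marker list the rule allowed up to 3 genes, and not all of these were named. Named outside this rule, with values known, were Loxl3, Elane, Mmp12, Fbn2, Efemp1 and Bgn. So were the marker genes Dpp4, Tagln, Elf5, Krt5, Krt14, Sox9, Col2a1 and Acan, and the gene pairs. In GENCODE M21 (GRCm38) exons of Eln, Fbn1, Lox and Loxl2 overlap a gene on the opposite strand, and Loxl2 also a microRNA gene on its own strand. Without known use of strand, reads from such partners cannot be told apart.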

Additional observations from a re-analysis of the deposited data

How the results depend on the processing

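Under the 4 other scalings and the fragment estimate 8 of 10 members kept their direction, all but Loxl1 and Loxl2. A pseudocount or a minimum cannot turn a direction. Over all these settings the log2 ratio ranged from -0.96 to -0.63 for Lox, -0.81 to -0.72 for Mfap5 and 0.44 to 0.63 for Fbln5. Members at least 1.5-fold lower stayed at 2 except with another threshold, at 4 for a ratio of 5 to 4 and 0 for 2-fold. Members higher numbered 1 in place of 0 with a pseudocount of 0.1, with fibroblast marker scaling and at a ratio of 5 to 4. The member median was -0.098 with a pseudocount of 5 and -0.087 with fibroblast marker scaling. Other pathway genes lower numbered 2 with a pseudocount of 5, 4 with fibroblast marker scaling, 18 at a ratio of 5 to 4 and 1 at 2-fold, in place of 9. Those higher numbered 0 with a pseudocount of 5, with a minimum of 5 and at 2-fold, and 3 at a ratio of 5 to 4, in place of 1. Their median was -0.035 with fibroblast marker scaling, which moves all genes alike and took the median of all measured genes from 0.015 to 0.082. Over all measured genes, 225 were lower with a pseudocount of 5 and 530 with fibroblast marker scaling, in place of 623. At a ratio of 5 to 4 the count was 1534 and at 2-fold 199. Genes higher numbered 67, 314, 985 and 47 in the same order, in place of 220. With a pseudocount of 0.1, 887 genes were lower and 354 higher. With a minimum of 5, 354 were lower and 140 higher, of 7819 genes measured. Leaving out a library was not possible, and no paired analysis was possible because each genotype has 1 library. With 701 to 21734 fragments per member, depth limits Emilin1 most.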

Other observations

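Some pathway genes lay below the expression minimum and were picked out after their values were seen. Mmp12, the elastin-degrading metalloproteinase of macrophages, had 10 fragments in wild type and 59 in ILN/ILN. Its ratio was 6.34 (3.21 to 13.9), while macrophage markers summed to 670 and 493, and their part in this was not tested. Fbn2, the fibrillin gene most active in developing tissue, had 45 and 8 fragments and was 5.24-fold lower (2.44 to 12.9). Its level was far under that of Fbn1 in both libraries, at 0.089 and 0.017.

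Over 6 fibulin genes, summed fragments per kilobase, scaled by library totals, were 148 in both libraries. On the deposited values, which take the derived estimate for Fbln2, the sums were 156 and 147. On the fragment scale the share of Fbln5 was 7.875% in wild type and 11.9% in ILN/ILN, that of Efemp1 30.1% and 35.2%, and that of Efemp2 29.0% and 19.2%. Bgn, also picked out after its values were seen, which encodes the proteoglycan biglycan of elastic and collagen fibres, was at 185 and 237, a ratio of 1.28 (1.26 to 1.31).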
